A study of Drosophila melanogaster with 2 samples.

Results

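Downstream peaks at single-gene promoters are the places where the protein CG9705 was found just inside a gene, at or past a transcript start, in a chromatin immunoprecipitation sequencing (ChIP-seq) experiment on Drosophila melanogaster larvae. A peak was counted when transcript starts of exactly 1 protein-coding gene lay within 500 bp of its summit and the summit was at or downstream of the nearest of those starts, along the direction of transcription. There were 177 such peaks among 3533 peaks of the deposited optimal set, or 5.01% of all optimal peaks. They made up 16.02% of 1105 peaks at promoters of 1 gene (95% exact binomial interval 13.9 to 18.3%). The other 928 had their summit upstream, and 857 further optimal peaks lay near starts of several genes and are not members. The 177 peaks belonged to 173 genes, 1.24% of 13945 protein-coding genes.

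The material was whole wandering larvae of the third instar, males and females together, of 1 transgenic line that makes CG9705 with green fluorescent protein fused to its C terminus. The study had 1 group of 2 biological replicates, each a separate biosample of that line, and no untagged or second group among the peak lists. Fragments of 200 to 800 bp came from sonication. The labels conflict, since their free text calls both libraries an input while the antibody and assay fields name a ChIP for CG9705 and each peak list was derived with 1 separate control. The libraries are taken here as the ChIP. A peak list holds no tissue markers, so the tissue could not be checked, and whole larvae mix all cell types.

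CG9705 carries a cold-shock domain, a small fold that binds single-stranded nucleic acids and is best known from the Y-box proteins, which bind messenger RNA and in vertebrates also promoter DNA. A promoter is the stretch around a transcript start where RNA polymerase II is loaded, and most factors that load it sit upstream of the start. Sequence just downstream of a start holds the beginning of the first exon, often untranslated, and then the first intron, which in flies can hold regulatory elements and alternative starts.

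The summits fell into 2 zones, one close behind the start and one further in, where most but not all lay in an intron, and the sequences below are examples. Intron examples were read in the direction of transcription, 5′ to 3′, from RefSeq Release 6 of the genome, which is the dm6 assembly, over 151 bases centred on the summit and free of any annotated exon. The first 3 are strong members whose windows are rich in A and T, and capitals mark runs of 6 or more A or T. They are CG31612 at chr2L:21794882-21795032 on the minus strand, scramb2 at chr3L:3046354-3046504 on the minus strand and CG43116 at chr3R:25996544-25996694 on the minus strand.
CG31612: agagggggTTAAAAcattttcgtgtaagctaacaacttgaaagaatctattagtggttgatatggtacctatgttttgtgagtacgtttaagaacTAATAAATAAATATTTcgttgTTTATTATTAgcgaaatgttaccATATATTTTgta
scramb2: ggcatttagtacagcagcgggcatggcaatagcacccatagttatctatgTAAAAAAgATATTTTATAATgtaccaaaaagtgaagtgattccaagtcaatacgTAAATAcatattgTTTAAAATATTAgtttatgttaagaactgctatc
CG43116: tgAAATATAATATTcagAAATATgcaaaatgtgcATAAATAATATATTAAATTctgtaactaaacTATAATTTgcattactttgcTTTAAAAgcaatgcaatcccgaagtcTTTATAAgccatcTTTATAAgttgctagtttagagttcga

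The next 3 intron windows carry stretches of alternating C and A, or G and T on the strand shown, which capitals mark. They are Cat at chr3L:18822845-18822995 on the plus strand, Reph at chr2L:3803912-3804062 on the plus strand and Pfrx at chrX:19496969-19497119 on the plus strand. Cat is among the 25 strongest members, while Reph and Pfrx are weak ones, at ranks 3159 and 3215 of 3533.
Cat: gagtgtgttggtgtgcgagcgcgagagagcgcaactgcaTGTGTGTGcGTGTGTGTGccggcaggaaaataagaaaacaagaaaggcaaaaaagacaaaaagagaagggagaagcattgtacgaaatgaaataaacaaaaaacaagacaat
Reph: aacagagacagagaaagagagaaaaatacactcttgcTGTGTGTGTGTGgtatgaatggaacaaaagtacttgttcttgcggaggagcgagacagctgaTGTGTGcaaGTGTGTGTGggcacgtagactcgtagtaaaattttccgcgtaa
Pfrx: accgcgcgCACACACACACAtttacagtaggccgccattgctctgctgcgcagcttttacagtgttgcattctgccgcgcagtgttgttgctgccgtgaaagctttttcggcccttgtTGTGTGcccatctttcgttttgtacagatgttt

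The zone close behind the start includes a group of ribosomal protein genes at which the summit lay between 2 annotated starts. For 4 of them the 30 bases around each start are shown, with the start at base 15. The nearest start lies before the summit and the further start after it, and capitals mark a run of 7 or more pyrimidines that begins within 15 bases of the start, or the 8-base element TATCGATA. The windows are chr3L:13041742-13041771 and chr3L:13041787-13041816 on the plus strand for RpS4, chrX:13337690-13337719 and chrX:13337623-13337652 on the minus strand for RpS15Aa, chr3R:9778028-9778057 and chr3R:9778083-9778112 on the plus strand for RpS29, and chr2L:8042894-8042923 and chr2L:8042844-8042873 on the minus strand for RpL36A.
RpS4, nearest start: gcaatccagtatttagttattcgacgccaa
RpS4, further start: accgcccgcaaatctgCCTTTTCCTTTTCC
RpS15Aa, nearest start: gctaacTATCGATAggcacgttgagcgtag
RpS15Aa, further start: ttttccttccgtttCCCTTTCTTTTCCCTT
RpS29, nearest start: ctataatcgctgcgatcaatcgtggaaaat
RpS29, further start: ggtgccatcgctagTTCCTTTTCTTTTCga
RpL36A, nearest start: cacaacaatgaaacgaaaaccTATCGATAg
RpL36A, further start: tgccatcgctatgtgaTTTCCTTCTTTTTT

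The position of the summit chose the members, so it is given as a description. The median summit lay 128 bp downstream of the nearest start (quartiles 34 and 359 bp), and the same median was 116 bp over 187 peaks from the 3533 best of replicate 1 and 102.5 bp over 190 peaks from the 3533 best of replicate 2. The distribution had a gap in the middle. Summits within 0 to 149 bp made up 57.1% of the members, only 10 summits lay at 150 to 249 bp, and 66 (37.3%) lay at 250 to 500 bp. Replicate 1 alone gave 110, 15 and 62 peaks in these ranges, and replicate 2 alone gave 109, 15 and 66. The ranges were set after the distribution was seen. The further zone ends at 500 bp because the rule does. With a window of 1000 bp there were 273 downstream peaks, with a median offset of 483 bp and 61.9% in an intron. On the upstream side there was no such gap: bins of 50 bp held 145 to 161 peaks within 150 bp of the start and fewer with each step outward, down to 26.

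**Figure D1:**
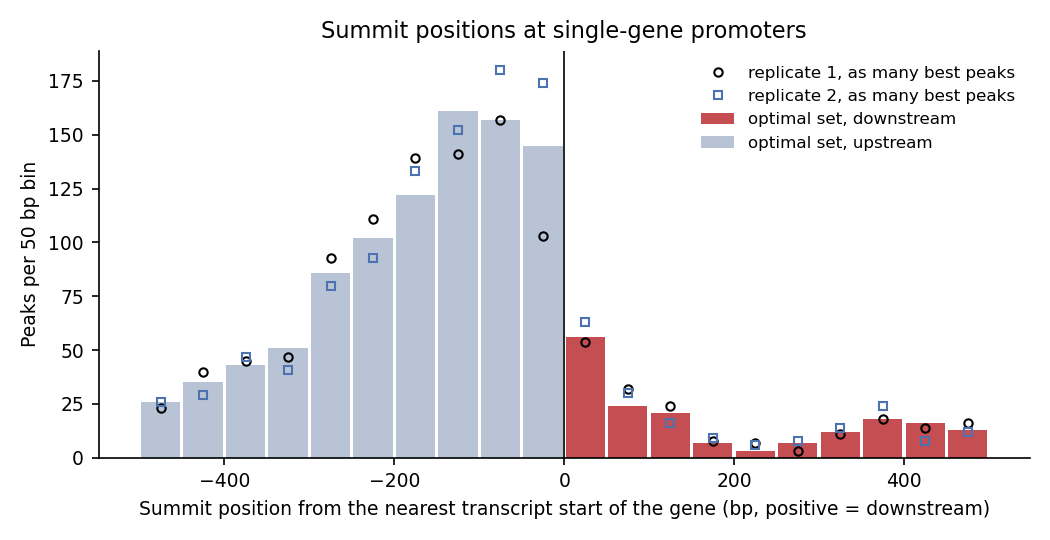
Number of single-gene promoter peaks (y) in 50 bp bins of summit position from the nearest transcript start (x, bp, positive is downstream); bars are the optimal set, circles and squares the 3533 best peaks of each replicate. The downstream side held 56 peaks in the first bin, 3 in the bin from 200 to 250 bp and 18 in the bin from 350 to 400 bp, with a similar course in both replicates.

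At the edge of the rule stood SrpRbeta, which encodes a subunit of the receptor for the signal recognition particle, and Sugb, both with the summit exactly at the start (0 bp). In replicate 1 their summits lay at -10 and -31 bp, and in replicate 2 at 0 bp in both. Pli, RpS2 and pAbp followed at 1 bp. Just outside were Ccz1 at -2 bp and, at -4 bp, RpL27A, drn, RpL7A and CG7920. The summits furthest inside were amn at 499 bp, which encodes a neuropeptide precursor, Fbl6 at 497 bp and CG5854 at 491 bp. Close to the start the side is not firm: among 170 members with a summit within 100 bp in both relaxed replicate lists, both replicates put it on the downstream side in 151 (88.8%). Among upstream peaks both replicates kept the upstream side in 860 of 888 (96.8%). For the members more than 50 bp from the start the count was 113 of 114.

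The 2 zones lay in different parts of the gene. Exon 1 precedes intron 1 behind any start, and the shares at such offsets over all genes were not computed. Of the summits at 0 to 149 bp, 92 (91.1%) were in untranslated exon sequence, 8 in an intron and 1, at Got2, in a coding exon. Of the 66 summits at 250 to 500 bp, 48 were in an intron (72.7%, exact interval 60.4 to 83.0%) and 18 in untranslated exon sequence. Replicate 1 alone had 48 of 62 and replicate 2 alone 47 of 66 of the further zone in an intron. Over all 177 members, 117 were in untranslated exon sequence, 59 in an intron and 1 in a coding exon. In the transcript of the nearest start, 116 summits lay in exon 1, 58 in intron 1 and 3 in intron 2. The introns had a median length of 809 bp (quartiles 369 and 2313 bp), and the summit lay a median of 162 bp from the 5′ end of the intron (quartiles 70 and 236 bp). The start codon lay further downstream than the summit in 156 of 177 cases.

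The strongest members included a Polycomb gene, the heat shock gene Hsp83, an ecdysone response gene and enzymes of detoxification. The score is the authors' own and was used only to rank peaks within a list. The highest was at ph-p, which encodes a subunit of Polycomb repressive complex 1, with a score of 1072 and a summit 425 bp downstream (chrX:2137690-2138097). It ranked 41 in the optimal set, 38 in replicate 1 and 42 in replicate 2, and the replicate summits lay at 445 and 429 bp. This gene has a near-identical neighbour, ph-d, and the placement of reads shared by such copies is not described in the files. CG31612 followed with a score of 927, rank 62 in replicate 1 and 67 in replicate 2, and summits at 492 and 490 bp. These 2 were the only members among the 100 best optimal peaks.

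Eip75B, an ecdysone-induced nuclear receptor, had a score of 668 and a summit at 31 bp from 1 of its 7 starts, with replicate summits at 56 and 26 bp. Hsp83, the fly Hsp90 chaperone, had a score of 558 at 120 bp, with replicate summits at 120 and 126 bp and ranks of 237 and 191. PNPase, a mitochondrial RNA-degrading enzyme, had a score of 690 at 58 bp, and the replicates put it at 64 and 56 bp. These 3 summits were in untranslated exon sequence and stayed on the same side of the start in both replicates. GstE13, a glutathione transferase, scored 510 at 51 bp, and Sqor, a mitochondrial sulfide oxidising enzyme, scored 504 at 12 bp. Replicate 1 placed the Sqor summit at -18 bp and replicate 2 at 10 bp, so the replicates did not share a side. Cat, the catalase that breaks down hydrogen peroxide, scored 455 with the summit in intron 1 at 316 bp, and the replicates put it at 325 and 318 bp. Its rank differed between them, at 642 in replicate 1 and 209 in replicate 2.

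Other enzymes and membrane proteins among the 25 strongest were CAH3, a carbonic anhydrase (score 551 at 141 bp), Fkbp14, a prolyl isomerase (513 at 417 bp), scramb2, a phospholipid scramblase (485 at 383 bp), eas, an ethanolamine kinase (406 at 359 bp), Cftr, a chloride channel (390 at 236 bp) and Ptp4E, a receptor tyrosine phosphatase (379 at 404 bp). RpS4 and RpL30 encode ribosomal proteins (515 and 385, at 21 and 10 bp). The remaining 9 were at CG12316, CG14434, CG2811, CG9399, CG17982, CG43116, CG6287, hng3 and CG12935, with scores from 702 to 382.

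**Figure D2:**
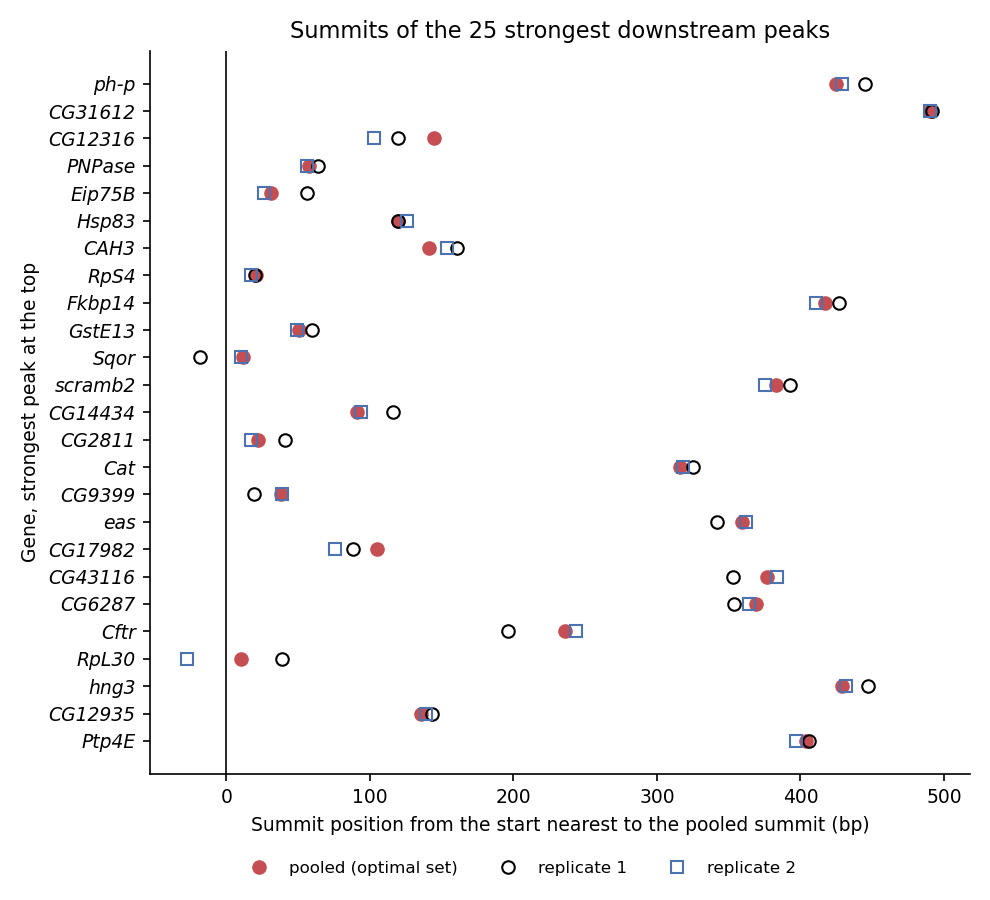
Summit positions (x, bp from the start nearest to the pooled summit) of the 25 strongest downstream peaks (y, strongest at the top) in the pooled set (filled circle), replicate 1 (open circle) and replicate 2 (square). In 23 of 25 all 3 summits lie downstream of the start; the exceptions are Sqor, at -18 bp in replicate 1, and RpL30, at -27 bp in replicate 2.

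As a class the downstream peaks were lower in the list than upstream ones. Their median score percentile within the optimal set was 39.1 (quartiles 18.4 and 71.9), against 49.7 for upstream single-gene peaks (26.9 and 76.6). Replicate 1 alone gave 37.1 against 49.5, and replicate 2 alone 34.7 against 50.9. The downstream share differed along the list. In the optimal set downstream peaks were 13.4% of single-gene peaks at ranks 1 to 883, 13.9 and 13.6% in the next 2 steps of equal size, and 22.97% at ranks 2650 to 3533. Replicate 1 gave 12.4, 15.3, 19.5 and 21.2% over these 4 steps, and replicate 2 gave 13.7, 10.2, 18.9 and 22.7%, so the share was already higher in the third step in both replicates, which the optimal set does not show. Within the higher-scoring part of the list, ranked by itself, the median percentile of downstream peaks was 54.7.

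Recurrence was high for both classes and lower for the downstream one. Among the members 119 (67.2%, exact interval 59.8 to 74.1%) had a summit within 100 bp among the 3533 best peaks of both replicates, against 74.9% of upstream peaks and 74.5% of all optimal peaks. Nearly all had a summit within 100 bp in the relaxed list of 30000 peaks, 171 in replicate 1 and 176 in replicate 2. The distance between the replicate summits had a median of 24 bp, against 23 bp for upstream peaks. The optimal set was drawn from these replicates, so the shares describe the matching and are not independent evidence. Lower scores go with fewer matches, and their part in this difference was not tested.

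Downstream peaks often lay between alternative starts of their gene. In 56 of 177 (31.6%, exact interval 24.9 to 39.0%) a further start of the same gene followed within 500 bp of the summit, so that the summit was downstream of one start and upstream of another. Among upstream single-gene peaks 59 of 928 lay between 2 starts in this way (6.36%, 4.87 to 8.12%). The rule itself makes these shares unequal, since every downstream peak has a start before it. An upstream peak nearest to the first start of its gene has none, which was so for 656 of the 928. The part of this in the difference was not tested. Replicate 1 alone gave 29.9% against 6.34%, and replicate 2 alone 26.8% against 7.54%. In the 56 cases the summit lay a median of 53 bp behind the nearest start and 145 bp before the further one (quartiles 118 and 189.5 bp). Nearly all were in the near zone, which held 49 of them, against 2 in the zone from 250 to 500 bp. By definition the further start is at least as far from the summit as the nearest one, and within 500 bp. This leaves little room for such cases in the further zone. The nearest start was that of the Ensembl canonical transcript in 36 cases and the further start in 12.

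Genes with a single annotated start were less frequent among downstream peaks, while the median number of starts per gene was 2 in both classes (quartiles 1 and 3). Of the members, 47 of 177 (26.6%) were at such genes, against 422 of 928 upstream peaks (45.5%), and the replicates alone gave 26.7% against 43.7% and 25.8% against 44.9%. A gene with more starts has more places that count as downstream, and the part of this in the shares above was not tested. The nearest start was the first of the gene in 59.3% of members and in 70.7% of upstream peaks, and the replicates alone gave 60.4% against 69.6% and 59.5% against 70.4%. Measured from the canonical start alone, 104 of the 177 summits lay within 500 bp downstream of it, 12 within 500 bp upstream of it, 44 further downstream and 17 further upstream. A start of a noncoding gene lay within 500 bp of 12 members (6.78%), against 8.08% of upstream peaks, which lies within the exact interval of the members (3.55 to 11.5%). From the replicates alone the shares were 5.88% against 8.01% and 8.95% against 8.06%, so the order was not kept. The genes were of similar length, with medians of 5449 bp and 5311 bp (5427 and 5495 bp in replicate 1, 5664 and 5413 bp in replicate 2).

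Of the 16 gene lists counted, that of cytoplasmic ribosomal protein genes held the most members. Downstream peaks lay at 12 of 88 such genes (13.6%), against 1.24% of all protein-coding genes, and at 11 of them from each replicate alone. The list was chosen with earlier results of these data known, and these genes are often bound in this data set, so the count is a description. Upstream single-gene peaks lay at 30 of the 88. The 1.24% is for downstream peaks only. The share of all genes with an upstream single-gene peak was not computed, and 928 such peaks lie at no more than 928 of 13945 genes. None of the 12 genes with a downstream peak was among the 30. Over all members only 21 of 173 genes had peaks on both sides, so no overlap among 12 genes says little. These proteins build the ribosome, and in animals their genes are known to start transcription within a run of pyrimidines, the polypyrimidine initiator. All 13 peaks, of which RpL26 had 2, had the summit within 60 bp of the nearest start, and in 10 the summit lay between 2 starts.

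RpS4 had its summit at 21 bp from the nearest start and 24 bp before the further one, and the replicates put it at 20 and 17 bp. RpS29 had it at 6 bp and 49 bp before the further start, at 4 bp in both replicates. RpS15Aa had it at 21 bp with the further start 46 bp on, and replicate summits at 33 and 13 bp. RpS23 had it at 24 bp with the further start 25 bp on, and replicate summits at 7 and 6 bp. In these 4 genes each replicate placed the summit between the same pair of starts. RpL30 did not keep its side (39 and -27 bp), nor did RpS7 (-25 and -23 bp against 3 bp in the pooled set). At RpL26 the peak at 58 bp had no match in replicate 1 and 63 bp in replicate 2, and the peak at 29 bp had replicate summits at -60 and 33 bp. In the other 9 of the 13 peaks both replicates were downstream. The other peaks were at RpL12, RpS2, RpL36A, RpS30 and RpS6.

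**Figure D3:**
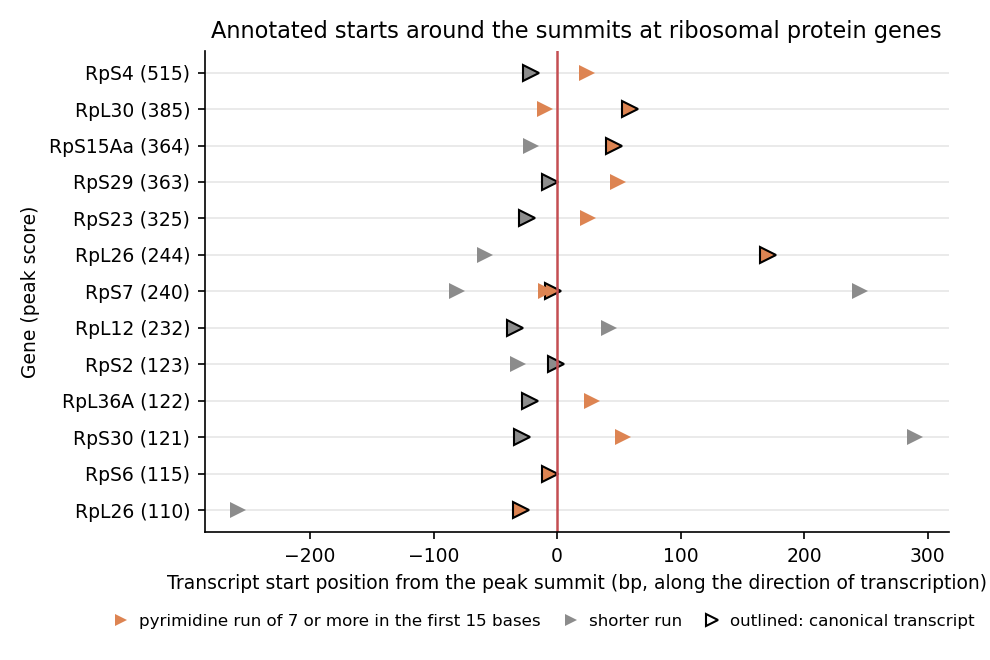
Annotated transcript starts (triangles, x, bp from the peak summit along the direction of transcription) at each ribosomal protein member (y, with the peak score). Orange starts carry a run of 7 or more pyrimidines within their first 15 bases, grey ones do not, and an outline marks the canonical transcript. In RpS4, RpS15Aa, RpS29, RpS23, RpL36A, RpS30 and the RpL26 peak of score 244 the summit, at 0, lies behind a grey start and before an orange one. The other RpL26 peak lies 29 bp behind the orange start.

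As the sequences of RpS4, RpS15Aa, RpS29 and RpL36A show, the pyrimidine run sat at the further start. A run of 7 or more pyrimidines lay in the first 15 bases of the further start in 8 of 10 genes that had one (median longest run 12 bases), and at 4 of 13 nearest starts (median 3). Among 19607 starts of all protein-coding genes 4.16% had such a run. The exceptions at the further start were RpS7 and RpL12. RpS7 has the run at its nearest start instead. In the 8 genes the summit lay 24 to 171 bp before the pyrimidine-rich further start, and so on its upstream side. For RpL26 this holds for the peak at 58 bp, while its other peak lay 29 bp behind that same start. That start is counted among both the further and the nearest starts. RpL30 had a run of 7 at its nearest start too, with the summit 10 bp behind it. The length of the run and the stretch searched were set after these sequences had been seen.

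The element TATCGATA, which binds the factor DREF in fly promoters, was searched on both strands within 100 bp of the summit. It was present in 10 of 177 downstream peaks (5.65%), close to 6.25% of upstream peaks and 5.01% of all optimal peaks. At all 13945 protein-coding genes the share in a window of the same length, centred 128 bp downstream of the start, was 0.703%. The members holding the element, except cnc, had summits within 58 bp of the start. Their windows thus reach upstream of it, and the 2 shares are from unlike positions. Within the members it was concentrated at ribosomal protein genes, with 7 of 13 peaks there (RpS15Aa, RpS29, RpL26, RpS7, RpL36A, RpS30 and RpS6) and 3 of 164 elsewhere (Rnp4F, cnc and CG2200). From replicate 2 alone 6 of 12 ribosomal protein peaks held it, and 16 of all 190 downstream peaks. From replicate 1 alone only 2 of 11 did, and 10 of all 187 downstream peaks. So in neither replicate alone were most of the peaks holding it at ribosomal protein genes. Of 31 upstream peaks at ribosomal protein genes 6 held it. This split was made after the values were seen.

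The element CACACACA was the motif that downstream peaks held more often than upstream ones by the widest ratio among those present in at least 10 members. It was in 17 of 177 windows (9.60%), against 2.80% of upstream peaks, 3.20% of all optimal peaks and 3.94% of all protein-coding genes. That last share is from the window centred 128 bp downstream of the start, short of the further zone. Replicate 1 alone gave 8.02% against 3.003%, and replicate 2 alone 9.47% against 3.04%. The zone from 250 to 500 bp held 12 of the 17 (12 of 66 peaks), and the near zone 5 (4.95% of its peaks). From the replicates alone the further zone had it in 8 of 62 and 9 of 66 peaks, and the near zone in 7 of 110 and 6 of 109. Between the zones, at 150 to 249 bp, it was in 0 of 15 and 3 of 15, so in replicate 2 that range had the highest share. Cat was the strongest of these, followed by IntS6, a subunit of the Integrator complex, at 378 bp with a score of 228. Pfrx, the enzyme that makes and breaks fructose bisphosphate, had a score of 106 at 369 bp, and Reph a score of 107 at 442 bp. Both were low in the optimal set, at ranks 3215 and 3159. Pfrx was not among the 3533 best peaks of replicate 1 (rank 4580), nor Reph among those of replicate 2 (rank 5304). Reads in simple repeats can be placed less surely, and the files do not say how they were placed.

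The TATA box TATAAA was less frequent, with 19.2% of downstream and 34.4% of upstream peaks, and 24.1% against 36.6% and 18.4% against 32.5% from replicates 1 and 2. Its share at all genes in the shifted window was 17.2%. That window lies wholly downstream of the start, so these shares are from unlike positions. G+C content around upstream summits was lower, as given below, and its part in the shares of A+T-rich elements was not tested. The pyrimidine element CTTTTC was in 24.3% of downstream and 17.8% of upstream peaks, but in 20.9 against 19.1% from replicate 1 and 20.5 against 19.3% from replicate 2. The M1BP element GGTCACAC was in 4.52 and 3.77%, with 2.67 against 2.22% from replicate 1 and 7.89 against 4.19% from replicate 2, so its share among downstream peaks was not stable. A further element, TATTTA, was added after the data were seen and was in 36.2% of downstream and 47.95% of upstream peaks, with 39.6 against 49.8% and 35.8 against 45.4% from the replicates. A match is only a string of letters in the window and not a shown site. Besides TATTTA, 20 motifs were searched, and no test was run on any of them.

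Base composition differed along with this. Within 50 bp of the summit the median G+C content was 40.6% in downstream peaks, 34.7% in upstream peaks and 32.7% in all optimal peaks. Replicate 1 gave 38.6% against 32.7% for downstream and upstream peaks, and replicate 2 gave 40.6% against 35.6%. Averaged over windows 400 bp to either side, the medians were the same in both classes, at 43.1%. This average hides a rise along the direction of transcription. In near-zone peaks the mean G+C in 21 bp was 38.6% 400 bp before the summit and 48.8% 400 bp behind it. In upstream peaks it was 39.2 and 46.9%. The rule fixed the side of the start, and the part of this in the difference at the summit was not tested. Downstream peaks at 250 to 500 bp had 36.6% within 50 bp of the summit and those at 0 to 149 bp had 41.6%. Within the further zone the 48 intron summits had a median of 34.2% and the 18 in untranslated exon sequence 43.6%. The intron members among the 25 strongest ranged from 24.8% at CG6287 to 43.6% at Cat, with 25.7% at CG31612, scramb2 and CG43116, 26.7% at hng3, 30.7% at Ptp4E, 31.7% at Fkbp14 and 40.6% at Cftr.

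**Figure D4:**
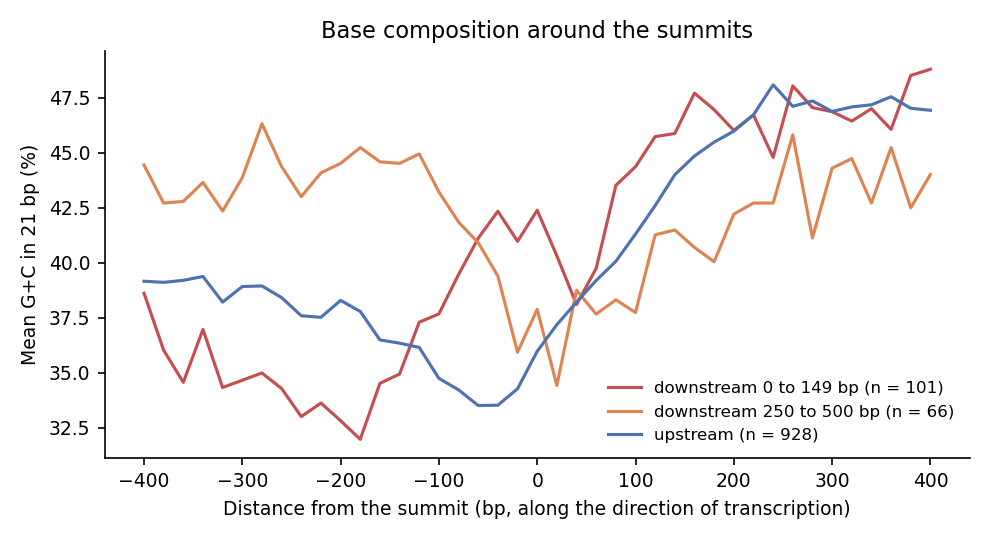
Mean G+C content (y, percent, in 21 bp windows) against distance from the summit (x, bp, along the direction of transcription) for downstream peaks of the near and further zone and for upstream peaks. The lowest value of upstream peaks, 33.5%, is 60 to 40 bp before the summit, that of the further zone, 34.4%, is 20 bp behind it, and that of the near zone, 32.0%, is 180 bp before it, on the upstream side of the gene's start.

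In the near zone the A+T-rich stretch thus lay before the start and not under the summit, where G+C was 42.4%. In the zone from 250 to 500 bp the dip was at the summit, with 45.2% G+C 180 bp before it. The profiles are means over all peaks of each kind, and peaks that neighbour each other share sequence.

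Each list other than that of the ribosomal protein genes held 0 to 5 genes with a downstream peak. No downstream peak lay at any of 73 mitochondrial ribosomal protein genes, 87 oxidative phosphorylation genes, 32 tRNA synthetase genes, 48 proteasome genes or 121 cuticle protein genes, against 1.24% of all protein-coding genes. The proteasome, tRNA synthetase, mitochondrial ribosome and oxidative phosphorylation lists had 2, 1, 2 and 2 genes with an upstream single-gene peak. No share over all genes was computed for upstream peaks. At the background share of 1.24% for downstream peaks, lists of this size would hold about 1 gene or none, so the zeros say little. Translation factors had 1 of 54 (eIF4A, the RNA helicase, score 107 at 92 bp). Transcription factors of development had 1 of 96 (CrebB, score 160 at 372 bp), which was 3 from replicate 1 and 1 from replicate 2.

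Regulators of messenger RNA had 5 of 53 genes (9.43%), against 1.24% of all genes, with 5 from replicate 1 and 4 from replicate 2. Upstream single-gene peaks lay at 8 of the 53, a count without a share over all genes beside it. Smg5, of nonsense-mediated decay, had peaks at 52 bp (score 295) and at 250 bp (100). The poly(A)-binding protein gene pAbp had peaks at 459 bp (172) and 1 bp (119). The hnRNP gene sqd had a peak at 128 bp (152), with replicate summits at 127 and 140 bp. Unr, itself a cold-shock domain protein, had a peak at 346 bp (151), with replicate summits at 352 and 341 bp, and Fmr1, the fly fragile X protein, was at 17 bp (130) with replicate summits at 15 and -33 bp. Splicing genes had 2 of 46, the sex-determination gene Sxl at 344 bp (210) and the SR protein gene B52 at 51 bp (182).

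The remaining counts stand beside the same 1.24% of all protein-coding genes. Ecdysone response genes had 3 of 29: Eip75B, Eip63F-1, an EF-hand calcium-binding protein (289 at 486 bp, in an intron), and the cyclin-dependent kinase gene Eip63E (118 at 315 bp). Polycomb and trithorax genes had 2 of 31 (6.45%), ph-p and Trl, which encodes GAGA factor (244 at 120 bp, replicate summits at 100 and 125 bp). Signalling genes had 5 of 83 (6.02%), led by the Hippo pathway gene Mer (181 at 116 bp) and the protein kinase A regulatory subunit gene Pka-R2 (152 at 446 bp), followed by the Hippo cofactor gene mats (106 at 433 bp) and arr, a Wingless co-receptor (102 at 58 bp). Cytoskeletal genes had 4 of 60 (6.67%): sqh, the myosin regulatory light chain (362 at 146 bp), Vinc, vinculin (351 at 109 bp), betaTub56D, a tubulin (114 at 30 bp), and tsr, cofilin (104 at 25 bp). Heat shock and chaperone genes had 1 of 34 (2.94%), Hsp83, and glycolysis and lipid storage genes 1 of 33, Acsl, an acyl-CoA synthetase (144 at 343 bp). Upstream single-gene peaks lay at 10 of the ecdysone response genes, 7 of the Polycomb and trithorax genes and 12 of the signalling genes. They lay at 8 of the cytoskeletal genes, 3 of the chaperone genes and 11 of the glycolysis and lipid storage genes. The 1.24% is for downstream peaks and is no background for these upstream counts. These lists hold few members each, and counts of 1 to 5 are too small to order them.

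Some genes had more than 1 peak. RpL26, Smg5, Trpm and pAbp had 2 downstream peaks each, at Trpm, a cation channel gene, at 143 bp (score 285) and 174 bp (107). In 21 genes a downstream and an upstream single-gene peak occurred together, with summits within 1000 bp of each other in 11 and at the same nearest start in 4 (MFS14, Mer, Reph and nkd). Among the strongest of the 21, ph-p had its upstream peak at -464 bp with a score of 2039, above the 1072 of the downstream one. Ptpmeg2, a tyrosine phosphatase gene, had 3 upstream peaks, the highest at 1044, and a downstream peak of 119. CHES-1-like, a forkhead gene, had 664 upstream and 178 downstream (183 bp), Fkbp14 had 655 and 513, and CG11151 had 589 and 131. These 5 are the genes with the highest score on either side, and in them the upstream peak scored higher. Over all 21 genes the upstream peak was the stronger in 15 and the downstream peak in 6, namely Cftr (390 against 156), MFS14 (200 against 99.2), Mer (181 against 104), Cerk (153 against 125), fax (145 against 102) and eIF4A (107 against 102), named after their values were seen.

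By chromosome arm the downstream share of single-gene peaks was 20.1% on X, 19.2% on 3L, 15.4% on 2R, 14.5% on 3R and 11.5% on 2L, and 0 of 6 peaks on chromosome 4 were downstream. Replicate 1 alone gave 19.0, 19.3, 16.1, 15.9 and 16.6% for the 5 large arms in that order and replicate 2 alone 18.1, 19.9, 18.9, 13.5 and 13.5%, so 2L stood below 3R in neither replicate, with almost equal shares in replicate 2. The width of downstream peaks gives little, since 117 of 177 had exactly 400 bp, as did 504 of 928 upstream peaks. The gene of the tagged protein itself, CG9705, had its nearest optimal summit 285 bp from a start, at a promoter of several genes, and so is no member. The nearest summit to the eye colour gene w was 9031 bp from a start.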

How the data were processed

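ChIP-seq peak lists of 2 biological replicates of 1 group were analysed. Per the deposited file notes they are narrowPeak lists on dm6: 30000 relaxed peaks for each replicate and for the pool, and an optimal set filtered by irreproducible discovery rate (IDR). For the aligner, the caller and the IDR cut-off, the setting is not given in the sources used here. As deposited, the score is the caller's signal value, of unstated scale, and ranks peaks within a list. The deposited −log10 q value is capped and was not used for ranking. The deposited summit offset gives the summit position. No read counts are given, so depth is unknown. No per-sample value column was left unused (0).

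Starts came from Ensembl release 115 (BDGP 6.54), transposable elements left out, and sequence from RefSeq Release 6. Assignment, offsets and motif search were tested on simulated data. Main results are given with the value that either replicate gives by itself, from as many best peaks as the optimal set holds. Exact binomial intervals (95%) cover counting only. No p-values were computed. Alternatives were other windows (250 and 1000 bp), the higher-scoring part of the optimal set, other start sets, a minimum offset of 50 bp, each replicate alone and other matching rules. Named genes are the 25 highest-scoring members, up to 4 of each of 16 lists, those at the edges of the rule, genes with several peaks, CG9705 and w. The ribosomal protein and messenger RNA lists are exceptions, with all 12 and all 5 genes named. Members with particular motifs or missing from a count were named after their values were seen. The peaks, gene lists and motifs were chosen with earlier results of these data known. The work used matplotlib 3.10.9, scipy 1.17.1, pandas 2.3.3 and numpy 2.4.6 under Python 3.11.15.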

Additional observations from a re-analysis of the deposited data

How the results depend on the processing

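No paired analysis was possible because there was 1 group of 2 replicates and no second group. The shares and medians given for other settings moved by more than the SD between the replicates; those for a left-out replicate are ranges and include values that moved by less.

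With a 250 bp window the downstream share was 13.1%, the median offset 46 bp, the intron share 10.7%, the share nearest to the first start 70.0%, the share followed by a further start 45.7% and that with a noncoding start 1.43%. With a 1000 bp window these were 23.02%, 483 bp, 61.9%, 57.9%, 22.0% and 9.89%, the median score percentile was 43.2 and the TATCGATA share 2.20%. The window sets how much sequence can count as downstream. In the higher-scoring part of the optimal set, split at the median score, the downstream share was 13.6%, the percentile within them 54.7, the intron share 38.4%, the first-start share 60.3%, the further-start share 43.8%, the share matched in both replicates 94.5%, the TATCGATA share 9.59% and the median width 282 bp. There translation factors had 0 genes, mRNA regulators 2, developmental transcription factors 0, signalling 1, cytoskeleton 2 and glycolysis and lipid storage 0; fewer peaks were counted. With a summit at least 50 bp downstream the share was 11.5%, the median offset 269 bp, the percentile 42.6, the intron share 48.8%, the first-start share 52.1%, the further-start share 25.6% and the TATCGATA share 1.65%. With exactly 1 gene of any type the first-start share was 56.4% and the noncoding share 0% by construction.

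Starts of protein-coding transcripts only gave the same value for each of the 10 shares and medians. Starts of the canonical transcript only, an alternative chosen after seeing the data, gave a percentile of 42.8, an intron share of 22.9%, a noncoding share of 9.03% and a match in both replicates of 72.9%, and by construction 100% at the first start and 0% followed by a further one. The share matched in both replicates was 54.8% for summits within 50 bp and 58.8% for reciprocal overlap of at least 50%. TATCGATA was in 2.26% of windows of 50 bp to either side.

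Leaving out a replicate gave a downstream share of 16.6 to 17.2%, a median offset of 102.5 to 116 bp, a percentile of 34.7 to 37.1, a further-start share of 26.8 to 29.9%, a first-start share of 59.5 to 60.4%, an intron share of 31.6 to 34.2%, a noncoding share of 5.88 to 8.95%, a match in the other replicate of 56.8 to 63.6%, a TATCGATA share of 5.35 to 8.42% and a median width of 380 to 396 bp. Developmental transcription factors had 1 to 3 genes and chaperones 0 to 1. With 2 replicates their SD is itself poorly known. Depth is unknown, and no test compares conditions.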

Other observations

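Below the optimal set, in the pooled relaxed list, the downstream side grew with rank. Downstream peaks were 404 of 1343 single-gene peaks at ranks 3534 to 7500 (30.1%, exact interval 27.6 to 32.6%), 40.9% at ranks 7501 to 15000 and 46.9% at ranks 15001 to 30000. Their make-up differed from that of the optimal members. Coding exons held 4.70, 11.7 and 20.4% of the downstream summits in these 3 steps, against 1 of 177 in the optimal set, and introns held 22.5, 24.8 and 27.3%, against 33.3%. Summits between 2 starts of the gene were 17.6, 7.66 and 6.16%, against 31.6%. These relaxed peaks include background, as the deposited file notes say, and were not matched between replicates here.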
